A study of Mus musculus with 23 samples.

Results

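Brain RNA of mice carrying the Csf1R-G793A substitution was compared with brain RNA of wild-type (WT) mice after both had eaten the CSF1R inhibitor PLX5622. By their titles, 4 libraries were G793A on PLX5622 and 4 were WT on PLX5622, which makes 8 of the 23 libraries of the series. All mice of this comparison were on the C57BL/6J background and ate chow with PLX5622 at 1200 mg/kg for 14 days, so both groups carried the drug and only the genotype differed by label. The series' title presents the substitution as a model resistant to CSF1R inhibitors, and its design asks whether G793A prevents the effects of the drugs. The other 15 libraries were WT (n = 3) and G793A (n = 4) on control chow and WT (n = 4) and G793A (n = 4) on another inhibitor, PLX3397, at 290 mg/kg for 14 days. The labels used here name neither brain region, sex, age, sequencing batch nor copy number of the altered allele, and whether the libraries are from different mice is not stated. The p-values therefore measure the spread between these samples, which may be technical.

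CSF1R is a receptor tyrosine kinase with 2 ligands, CSF1 and IL-34. Microglia, the resident macrophages of the brain, need its signal to survive, as do many macrophages along the brain's vessels and membranes. PLX5622 and PLX3397 are small molecules that cross into the brain, block the kinase and deplete microglia. PLX3397 is also known to act on the related kinases KIT and FLT3.

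Depth was alike in both groups, at 29.7 to 36.2 mega-counts in the WT libraries and 29.9 to 40.9 mega-counts in the G793A libraries. Levels are given as TMM-scaled counts-per-million (CPM). Differences are log2 fold changes, G793A minus WT, ± standard error (SE) from one edgeR quasi-likelihood model of all 23 libraries, and the threshold for a call was 0.05 after Benjamini-Hochberg adjustment across the 16209 genes. Brain tissue markers were present at like levels in both groups: the summed level of 4 neuronal markers (Rbfox3, Snap25, Syt1, Map2) ran from 5924 to 6441 CPM in WT and from 5695 to 6558 CPM in G793A. Among the libraries, 2 held transcripts of cerebellar granule cells. The summed level of Cbln3 and Gabra6 was 299 CPM in G793A replicate 2 and 42.7 CPM in WT replicate 1, against 0.905 to 1.20 CPM in the other 6. WT replicate 1 also held pituitary hormone transcripts (Prl, Gh and Pomc, 101 CPM in sum, against 0.828 to 11.8 CPM in the other 7). Without these 2 libraries, 165 genes passed, 164 of them higher and 1 lower (Gm45799, -3.37, named after its value was seen), and 157 were among the genes that passed with all libraries.

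Transcripts of microglia and of other brain macrophages were higher in G793A brains than in WT brains on the same drug. No gene was called lower in the edgeR fit of all libraries. Of 16209 genes tested, 177 were higher in G793A and 0 were lower, which is 1.09% and 0% of the genes. At an unadjusted p under 0.05 there were 577 higher and 320 lower genes, where chance alone would give about 810 in all. DESeq2 called 191 higher and 2 lower (the pituitary gene Cga, and Wfdc2), and limma-voom 170 higher and 1 lower (Dmrt3), and these 3 were named after their values were seen. The log2 fold changes of the called genes had a median of 1.64, and 142 were at 1 or above, while the median over all genes tested was -0.0046. In 175 of the 177 genes the lowest G793A library stood above the highest WT library, and BC035044 and Mlxipl, named after their values were seen, were the exceptions. The fitted WT level was under 20% of the G793A level for 35 genes, between 20% and 40% for 77, between 40% and 60% for 49, and 60% or more for 16. RNA of whole tissue was measured, so fewer macrophages and less RNA per macrophage cannot be told apart.

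**Figure D1:**
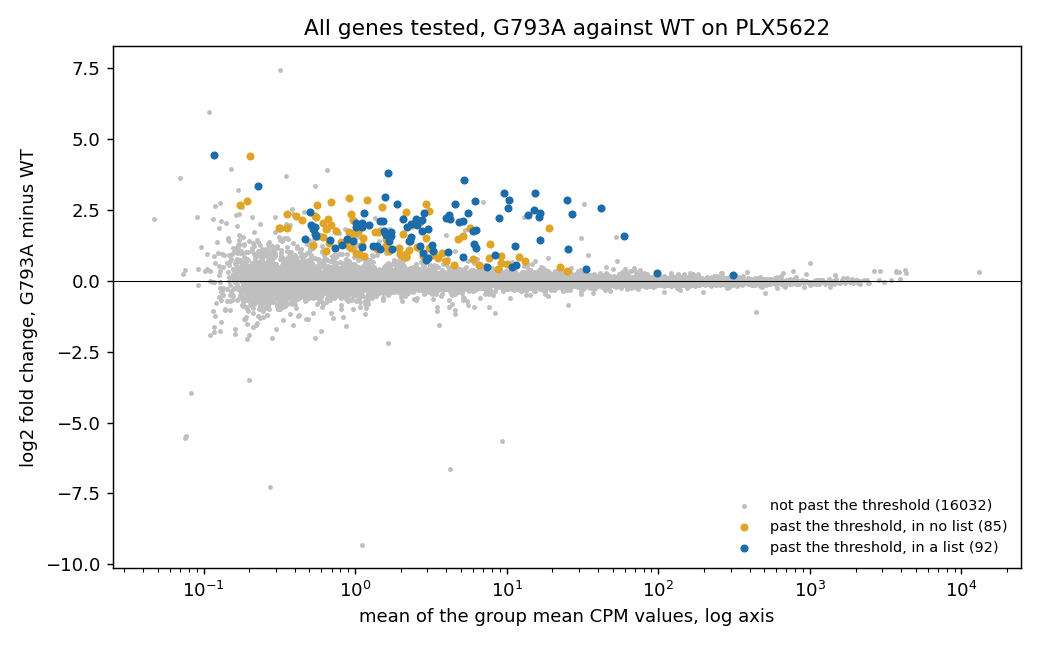
Every gene tested, by mean level (CPM, log axis) and log2 fold change of G793A minus WT on PLX5622. The 177 genes past the threshold, 92 in a gene list and 85 in none, all lie above 0. The grey points far from 0 did not pass.

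Csf1r itself stood at 74.2, 58.8, 77.3 and 76.0 CPM in the G793A libraries and at 15.8, 5.92, 15.3 and 11.8 CPM in the WT libraries. The groups were far apart, with the lowest value of each in its replicate 2. The difference was 2.54 ± 0.20 (adjusted p = 8.95e-08), and the fitted WT level was 17.2% of that in G793A. Leaving out each library in turn kept the difference between 2.32 and 2.69. On control chow, Csf1r ranged from 92.8 to 95.1 CPM in WT and from 78.5 to 88.4 CPM in G793A. Gene-level counts do not read the substitution, so they check the labels only through the level of the transcript. The ligand genes did not pass. Csf1 stood at 20.2, 19.4, 20.3 and 22.9 CPM in G793A and at 22.5, 21.7, 22.9 and 23.7 CPM in WT (-0.13 ± 0.07). Il34, the ligand gene expressed by neurons, stood at 52.7, 40.3, 47.5 and 48.7 CPM in G793A and at 49.3, 48, 52.6 and 52.6 CPM in WT (-0.10 ± 0.07). For both ligands the groups overlapped.

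**Figure D2:**
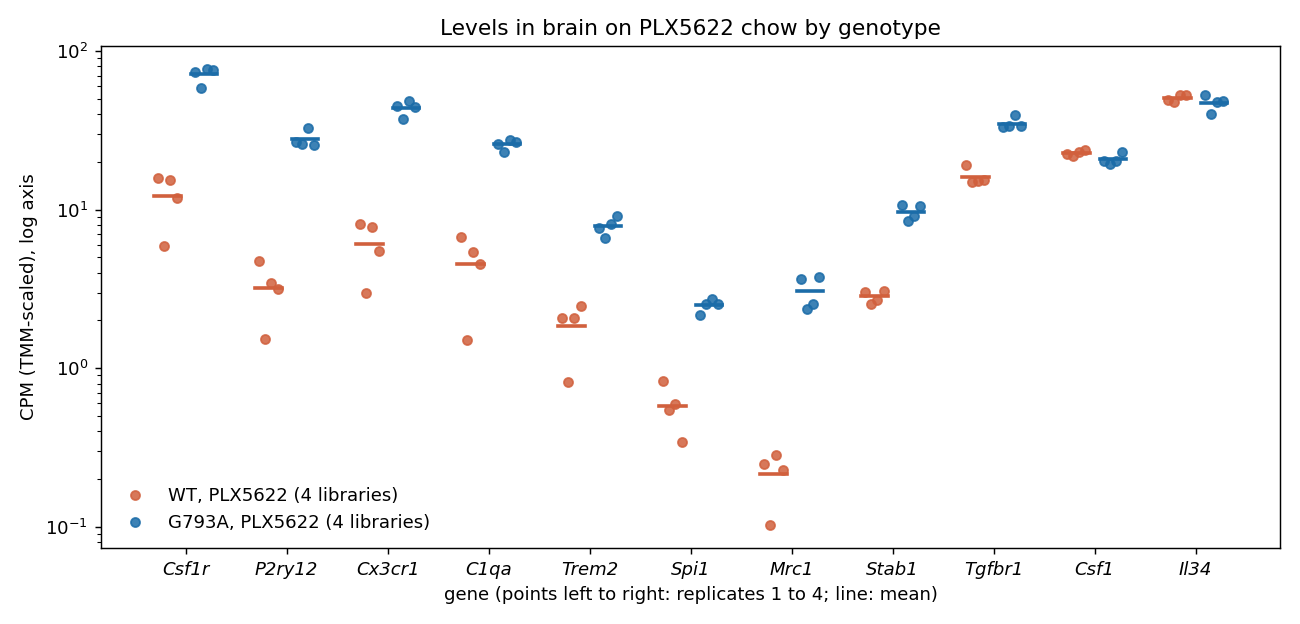
Level (CPM, log axis) of Csf1r, its ligand genes and other named genes in each of the 8 libraries, with the mean of each group as a line. For Csf1r, P2ry12, Cx3cr1, C1qa, Trem2, Spi1, Mrc1, Stab1 and Tgfbr1 every G793A point lies above every WT point, while the ligand genes Csf1 and Il34 overlap.

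Homeostatic microglia genes had the highest median of the 46 gene lists described. Of 18 tested, 14 were higher in G793A and none was lower, with a median of 2.14. P2ry13, which encodes an ADP receptor, stood at 9.57, 8.41, 11.3 and 9.38 CPM in G793A and at 0.964, 0.170, 1.20 and 0.917 CPM in WT (3.54 ± 0.24, adjusted p = 1.61e-09). P2ry12, the ADP receptor that steers microglial processes, stood at 26.7, 25.8, 32.7 and 25.7 CPM against 4.74, 1.53, 3.43 and 3.18 CPM (3.08 ± 0.19, adjusted p = 1.61e-09). In both, WT replicate 2 held the least transcript, and no WT library came near the G793A range. Cx3cr1, the fractalkine receptor gene, stood at 44.8, 37.4, 48.4 and 44.3 CPM against 8.15, 2.97, 7.81 and 5.51 CPM (2.83 ± 0.20). Fcrls (3.08 ± 0.28), the lysophosphatidylserine receptor gene Gpr34 (2.82 ± 0.24) and the lectin gene Siglech (2.70 ± 0.19) were higher as well. Fcrls stood at 3.88 CPM in WT replicate 1, against 0.511 to 1.98 CPM in the other WT libraries, and at 14 to 19.3 CPM in G793A. Without the 2 libraries that held cerebellar transcripts its difference was 3.73.

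Further down the homeostatic list the differences were smaller. Tmem119, a microglial surface marker, differed by 2.22 ± 0.21 and the fructose transporter gene Slc2a5 by 1.90 ± 0.23. The fitted WT level was 8.58% of that in G793A for P2ry13 and 11.8% for P2ry12. The 4 members that did not pass were Golm1 (0.40 ± 0.12), Sparc (0.31 ± 0.19), Cst3 (0.18 ± 0.12) and Sall1 (0.17 ± 0.17). Sall1, a transcription factor gene of microglial identity, stood at 15.4 to 25 CPM in G793A and 15.5 to 22.2 CPM in WT, and the groups overlapped.

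Of 26 pan-myeloid genes, shared by myeloid cells, 22 were higher and none lower, with a median of 1.62. Itgam, the CD11b integrin gene, stood at 17.0, 15.1, 20.6 and 20.4 CPM in G793A and at 3.42, 1.09, 2.77 and 2.83 CPM in WT (2.83 ± 0.21, adjusted p = 2.02e-08). Tyrobp, the signalling adaptor DAP12, stood at 9.69, 8.44, 9.64 and 9.63 CPM against 2.07, 0.953, 2.03 and 2.12 CPM (2.37 ± 0.19). Replicate 2 was lowest in both groups and the other 3 libraries of each lay close together. Vav1, a guanine nucleotide exchange factor of blood cells (2.71 ± 0.23), and Hpgds, the haematopoietic prostaglandin D synthase (2.38 ± 0.21), were higher, and so was the protease gene Ctss (2.36 ± 0.20). At the lower end of the list stood Ptprc, the CD45 gene (1.06 ± 0.21), Cd68 (1.01 ± 0.16), the kinase gene Syk (0.98 ± 0.20) and the lipid phosphatase gene Inpp5d (0.90 ± 0.12). Plcg2 (0.55 ± 0.16), Cyba (0.53 ± 0.16), Blnk (0.31 ± 0.15) and Coro1a (-0.10 ± 0.08) did not pass.

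Of 16 transcription factor genes of myeloid cells, 5 were higher and none lower (median 0.20). Spi1, which encodes PU.1, the master regulator of macrophage development, stood at 2.15, 2.56, 2.72 and 2.55 CPM in G793A and at 0.826, 0.545, 0.598 and 0.344 CPM in WT (2.10 ± 0.23, adjusted p = 9.53e-07). Irf8 (1.40 ± 0.20), Ikzf1 (1.38 ± 0.20), Runx1 (1.27 ± 0.22) and Irf5 (1.10 ± 0.20) were the others. The 11 that did not pass included Maf (0.19 ± 0.09) and Mef2c (-0.04 ± 0.12), both expressed in brain cells other than macrophages too.

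Spi1 was among the called genes, and the letters just before the starts of these genes were read in RefSeq promoter windows (build GRCm38.p6). A PU.1-type site, GAGGAAGT on either strand, was sought in the 250 bases before each annotated start. Windows were found for 139 of the 177 called genes. The site was in 16 of their 168 windows (9.52%), against 362 of 16040 windows (2.26%) of all tested genes. Whether macrophage genes that were not called hold the site as often was not tested. The 5 promoters below, of 120 bases each up to the base before the start, were chosen after the matches were seen. They show the site in 4 genes whose differences ranged from 0.90 (Inpp5d) to 2.93 (Havcr2), and P2ry12, with a larger difference and no exact match. Only the exact string was sought, and the P2ry12 sequence holds the near match aaggaagt. Sequences run 5′ to 3′ on the gene's strand, and capitals mark the GAGGAAGT site.
Havcr2 chr11:46454811-46454930 (+ strand): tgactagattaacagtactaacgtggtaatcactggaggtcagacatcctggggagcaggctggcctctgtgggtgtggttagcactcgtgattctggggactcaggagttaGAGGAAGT
Vav1 chr17:57278980-57279099 (+ strand): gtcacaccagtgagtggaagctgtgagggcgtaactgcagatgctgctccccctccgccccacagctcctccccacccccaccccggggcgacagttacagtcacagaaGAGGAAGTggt
Hpgds chr6:65144731-65144850 (- strand): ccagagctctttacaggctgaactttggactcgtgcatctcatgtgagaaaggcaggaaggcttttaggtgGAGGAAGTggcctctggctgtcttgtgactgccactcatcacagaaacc
Inpp5d chr1:87620192-87620311 (+ strand): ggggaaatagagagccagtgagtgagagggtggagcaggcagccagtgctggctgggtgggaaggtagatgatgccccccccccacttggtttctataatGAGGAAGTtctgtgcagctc
P2ry12 chr3:59262986-59263105 (- strand): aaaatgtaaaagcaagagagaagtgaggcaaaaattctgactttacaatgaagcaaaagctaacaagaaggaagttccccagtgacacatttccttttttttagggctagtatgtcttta
In these windows the site ended 0, 3, 41 and 12 bases before the start in Havcr2, Vav1, Hpgds and Inpp5d, on the gene's own strand each time. A match is a string of letters in the reference, and binding was not measured.

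Receptors for purines and for complement fragments divided by member. Of 11 purinergic receptors and ectonucleotidases, 5 were higher (median 0.26): P2ry13, P2ry12, the adenosine receptor gene Adora3 (1.95 ± 0.35), P2ry6, a UDP receptor linked to phagocytosis (1.18 ± 0.27), and Entpd1, the CD39 ectonucleotidase (0.54 ± 0.09). P2rx7 (0.26 ± 0.11) and P2rx4 (0.04 ± 0.08) did not pass. P2ry6 stood at 1.09 to 1.86 CPM in G793A and 0.306 to 0.944 CPM in WT, and its call was lost in 7 of 18 alternative analyses, with adjusted p up to 0.14. Entpd1 lost its call with limma on the variance-stabilised values (adjusted p = 0.886).

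Of 17 complement genes, 8 were higher and none lower (median 0.37). The genes of all 3 chains of C1q, the recognition part of the classical pathway, were higher. C1qa stood at 25.8, 23.1, 27.5 and 26.9 CPM in G793A and at 6.69, 1.50, 5.44 and 4.56 CPM in WT (2.49 ± 0.25, adjusted p = 2.01e-06). C1qb (2.38 ± 0.23) and C1qc (2.32 ± 0.23) differed by like amounts. The receptor genes Itgam, Itgb2 (1.81 ± 0.24), C3ar1 (1.74 ± 0.31), C5ar1 (1.88 ± 0.37) and C5ar2 (1.80 ± 0.31) made up the rest of the 8. C3, which encodes the central component (0.36 ± 0.36), and C4b (-0.37 ± 0.16) did not pass. The list median was 1.06 in the fit of the 8 libraries alone.

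The TREM2 pathway and the disease-associated microglia genes differed by member. TREM2 is a lipid-sensing receptor that signals through DAP12. Of 22 genes tested, 4 were higher and none lower, and the median was 0.03. Trem2 stood at 7.61, 6.59, 8.07 and 9.10 CPM in G793A and at 2.07, 0.817, 2.08 and 2.47 CPM in WT (2.06 ± 0.19, adjusted p = 1.73e-07). Tyrobp, the lysozyme gene Lyz2 (1.73 ± 0.24) and the protease gene Ctsd (0.21 ± 0.05, adjusted p = 0.0462) were the others. Ctsd lost its call in 8 of 18 alternatives, 6 of which left out 1 library. Most other genes linked to the disease-associated state did not pass, among them Clec7a (-0.41 ± 0.36), Gpnmb (-0.31 ± 0.20), Lpl (-0.10 ± 0.13), Spp1 (0.04 ± 0.32), Axl (0.04 ± 0.10) and Apoe (0.01 ± 0.09). Cst7 was below the filter on low counts. Apoe, which astrocytes also express, was among the abundant transcripts, with ranges of 1048 to 1253 CPM in G793A and 1081 to 1184 CPM in WT that overlapped.

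Border-associated macrophages live in the meninges, the choroid plexus and around vessels. Of 17 tested markers 7 were higher and none lower (median 1.06, against -0.0046 over all genes). Mrc1, the mannose receptor gene, stood at 3.65, 2.37, 2.55 and 3.74 CPM in G793A and at 0.248, 0.102, 0.283 and 0.229 CPM in WT (3.80 ± 0.30, adjusted p = 1.10e-08). Stab1, a scavenger receptor gene, stood at 10.7, 8.43, 9.18 and 10.5 CPM against 3.00, 2.56, 2.71 and 3.08 CPM (1.77 ± 0.12, adjusted p = 1.61e-09). WT replicate 2 did not stand apart for Stab1, unlike for Csf1r and P2ry12. F13a1, the transglutaminase subunit, differed by 2.02 ± 0.32. Pf4 was higher at a low level, at 0.224 to 0.655 CPM in G793A and 0 to 0.0826 CPM in WT. Cd209f, a lectin gene, was at 0.138 to 0.309 CPM in G793A, and in WT it was at 0.0275 CPM in 1 library and 0 in 3, so no fold is given. Cd163, the haemoglobin scavenger receptor gene, stood at 1.25 to 2.45 CPM in G793A and 1.39 to 2.30 CPM in WT (0.06 ± 0.21). Lyve1 (1.06 ± 0.34) and Folr2 (0.83 ± 0.38) did not pass either. The list median fell to 0.07 under a filter at a mean of 1 CPM, which removes its low members.

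Summed levels put these markers side by side. The sum of 7 microglial markers (P2ry12, Tmem119, Siglech, Cx3cr1, Csf1r, Aif1, Itgam) ran from 161 to 207 CPM in G793A and from 14.8 to 40.3 CPM in WT. The sum of 5 markers of border-associated macrophages (Mrc1, Pf4, F13a1, Cd163, Lyve1) ran from 6.57 to 8.76 CPM in G793A and from 2.13 to 3.26 CPM in WT. Neither sum overlapped between the groups. The sum for monocytes and neutrophils (Ly6c2, Ccr2, S100a8, S100a9, Ly6g) did overlap, at 5.02 to 19.1 CPM in G793A and 0.876 to 8.86 CPM in WT, and its highest value was in G793A replicate 3. That library also held 4.35 CPM of the neutrophil granule gene Ngp, against 0.0245 to 0.352 CPM in the other 7. Of 13 genes of that cell group 1 was higher, the G-CSF receptor gene Csf3r (1.22 ± 0.23, adjusted p = 0.00298), which microglia also express. The part of blood cells in the results was not tested.

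**Figure D3:**
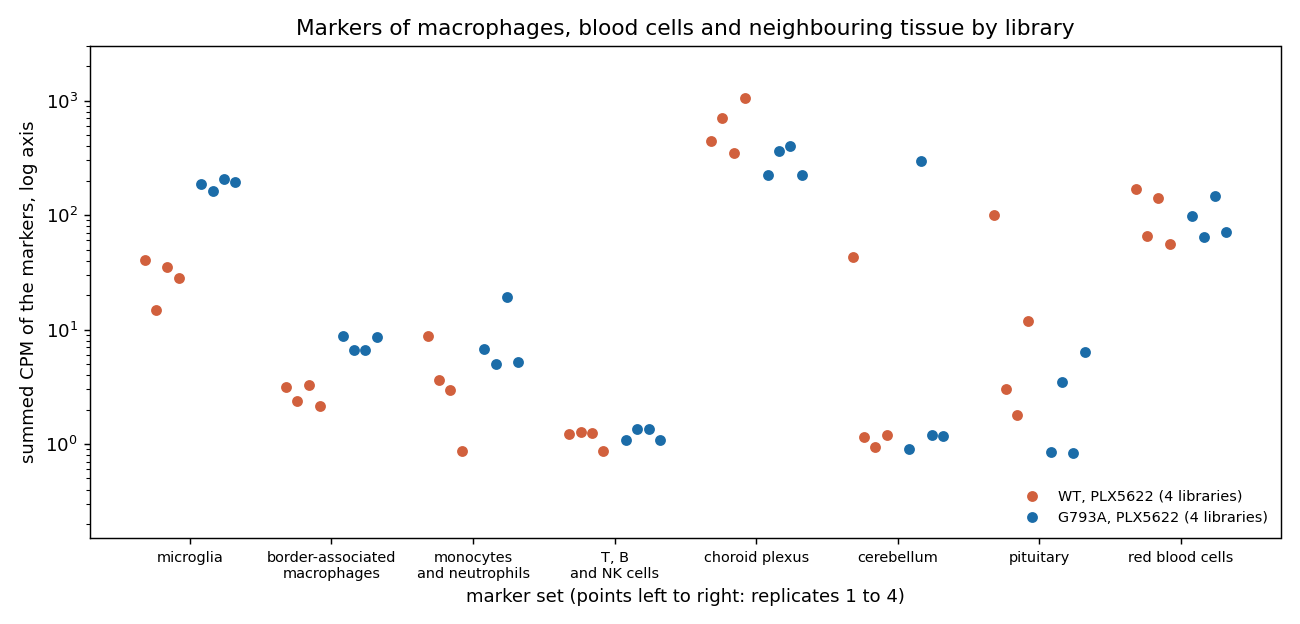
Summed CPM (log axis) of fixed marker sets in the 8 libraries, with replicates 1 to 4 from left to right in each group. Microglial and border-associated macrophage sums do not overlap between genotypes. Cerebellar markers rise far above the rest in G793A replicate 2 and WT replicate 1, and the monocyte and neutrophil sum is highest in G793A replicate 3.

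Receptors for antibodies and microbial products were counted next. Of 7 genes in the list of Fc gamma receptors and related genes, 5 were higher (median 1.73). Fcrls, an Fc receptor-like gene counted in the homeostatic list too, was 1 of them. The others were the shared chain Fcer1g (2.17 ± 0.22), Fcgr3 (2.11 ± 0.20), the inhibitory receptor gene Fcgr2b (1.73 ± 0.23) and the high-affinity receptor gene Fcgr1 (1.59 ± 0.17). Fcgrt, the neonatal Fc receptor gene, which other cells express, stood at 0.02 ± 0.07. Of 19 Toll-like receptor and accessory genes 6 were higher and none lower (median 0.89). The accessory genes Ly86 (2.16 ± 0.21) and Cd180 (2.09 ± 0.23), the co-receptor gene Cd14 (2.05 ± 0.47), Tlr13 (1.96 ± 0.32), Tlr7 (1.59 ± 0.19) and Unc93b1, the chaperone of endosomal receptors (1.29 ± 0.13), were these 6. Cd14 ranged from 1.14 to 2.14 CPM in G793A and 0.170 to 0.689 CPM in WT, and lost its call in 7 of 18 alternatives, with adjusted p up to 0.13. Tlr2 (0.71 ± 0.25), Tlr4 (0.58 ± 0.20) and Tlr9 (0.91 ± 0.24) did not pass.

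Immune checkpoint genes gave 6 of 19 higher and none lower, with a median of 1.15. Havcr2, the TIM-3 gene, stood at 2.49, 2.77, 3.25 and 2.65 CPM in G793A and at 0.444, 0.278, 0.350 and 0.363 CPM in WT (2.93 ± 0.30, adjusted p = 4.41e-07). The sialic acid receptor gene Cd33 (2.22 ± 0.18), the inhibitory receptor gene Lag3 (2.13 ± 0.21), the co-stimulatory ligand gene Cd86 (1.90 ± 0.27), Cd300a (1.21 ± 0.17) and Vsir, the VISTA gene (1.44 ± 0.10), were the others. Vsir was the most abundant of these, at 21.9 to 25.7 CPM in G793A and 7.49 to 10.3 CPM in WT. Genes of the ligand and receptor pairs through which neurons restrain microglia did not pass: Cd200 (-0.00 ± 0.05) and its receptor Cd200r1 (0.62 ± 0.46), and Cd47 (0.03 ± 0.08) and its receptor Sirpa (-0.02 ± 0.06).

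Of 22 cytokine receptor genes 7 were higher and none lower (median 0.38). Beside Csf1r and Csf3r these included Il21r (1.45 ± 0.29), the IL-10 receptor gene Il10ra (1.24 ± 0.13), Il6ra (0.82 ± 0.11) and the TNF receptor gene Tnfrsf1b (0.81 ± 0.15). The genes of the shared signalling chains Il6st (0.05 ± 0.06), Il10rb (0.10 ± 0.10) and Ifnar1 (-0.01 ± 0.06), expressed widely in brain, did not pass. Of 27 chemokine and chemokine receptor genes 4 were higher (median 0.22), among them Cx3cr1, Ccl9 (1.41 ± 0.32) and Pf4. Cx3cl1, the neuronal ligand of Cx3cr1, stood at -0.13 ± 0.10. Of 13 tested genes of inflammatory cytokines and related proteins, 3 were higher, none of them a cytokine gene. They were the inflammasome sensor gene Nlrp3 (2.40 ± 0.36), its adaptor Pycard (1.11 ± 0.19) and the cyclooxygenase gene Ptgs1 (0.48 ± 0.08). Tnf, Il6, Il10, Il12b and Osm were below the filter on low counts, and Il1b did not pass (0.46 ± 0.60).

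Of 19 genes of the TGF-beta system, whose signal maintains microglial identity, 2 were higher and none lower (median 0.01). Tgfbr1, a receptor gene, stood at 33.0, 33.7, 39.3 and 33.4 CPM in G793A and at 19, 14.9, 15.1 and 15.4 CPM in WT (1.11 ± 0.11, adjusted p = 4.66e-07). Tgfb1, the ligand gene, stood at 3.93, 3.14, 3.59 and 3.98 CPM against 1.95, 2.04, 3.01 and 1.95 CPM (0.71 ± 0.14, adjusted p = 0.00393). WT replicate 3 was close to the lowest G793A library. The second receptor gene Tgfbr2 (0.20 ± 0.07), the activating integrin gene Itgb8 (0.01 ± 0.06) and Smad3 (0.01 ± 0.10) did not pass. With the fit on the 8 libraries alone, the adjusted p of Tgfb1 was 0.075.

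Of 37 lysosomal genes tested, 7 were higher and none lower, with a median of 0.06. Ctss, Laptm5 (2.26 ± 0.20) and Cd68 were among those with the larger differences. Ctsc (0.47 ± 0.10), Lgmn, the legumain protease gene (0.29 ± 0.05), and Ctsd had smaller ones. Ctsc lost its call in 3 of 18 alternatives, with an adjusted p of 0.0526 without WT replicate 2 and 0.0588 without WT replicate 3. Lgmn stood at 111, 106, 103 and 111 CPM in G793A and at 96.6, 82.4, 83.8 and 90.7 CPM in WT (adjusted p = 0.00264), so that the fitted WT level was 82.0% of that in G793A. Lamp1 (0.06 ± 0.05), Ctsb (0.05 ± 0.04) and Grn (0.13 ± 0.06) did not pass.

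Of 27 genes tied to Alzheimer risk 7 were higher (median 0.05): Cd33, Spi1, Trem2, the actin regulator gene Abi3 (1.76 ± 0.19), Inpp5d, Ms4a6b and Ms4a6c. App (-0.07 ± 0.07), Mapt (-0.05 ± 0.06), Clu (-0.05 ± 0.09), Bin1 (-0.05 ± 0.04) and Picalm (0.07 ± 0.05) did not pass. Of 19 genes for clearing dead cells 3 were higher: Dock2 (2.00 ± 0.22), Stab1 and the integrin gene Itgb5 (0.40 ± 0.09), which lost its call without WT replicate 2 or WT replicate 3 (adjusted p up to 0.0742). The receptor kinase genes Mertk (0.23 ± 0.15), Axl and Tyro3 (-0.09 ± 0.08) did not pass.

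Antigen presentation and the interferon response were not among the called groups. None of 18 antigen presentation genes passed in either direction, and 14 had a positive value (median 0.22). Cd74, the invariant chain of MHC class II, stood at 3.97, 4.51, 3.45 and 7.45 CPM in G793A and at 2.51, 3.07, 3.59 and 2.47 CPM in WT (0.74 ± 0.24, adjusted p = 0.337). The lowest G793A library lay under the highest WT library. H2-Ab1 (0.72 ± 0.28) and the proteasome subunit gene Psmb8 (0.61 ± 0.17, adjusted p = 0.095) did not pass. None of 30 interferon-stimulated genes passed, with 26 positive values and a median of 0.29. Ifi44 (0.87 ± 0.28), Bst2 (0.50 ± 0.20) and Isg15 (0.30 ± 0.25) are examples.

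**Figure D4:**
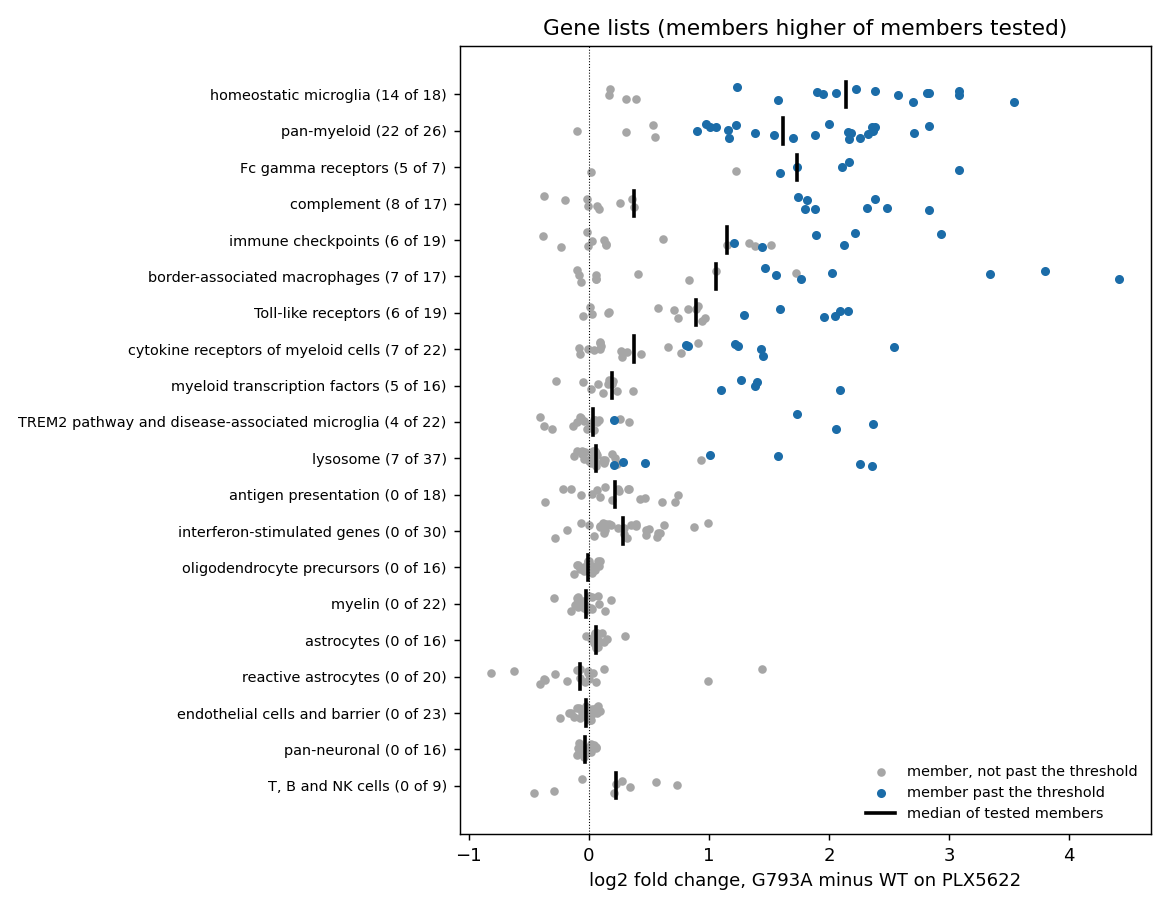
Log2 fold changes of the tested members of 20 gene lists, with members past the threshold in blue and the list median as a black bar. Myeloid lists reach medians of 2.14 (homeostatic microglia) and 1.62 (pan-myeloid), while the members of the lists of oligodendrocyte precursors, myelin, astrocytes, endothelial cells and neurons lie near 0.

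Outside the lists, 85 called genes were not members of any. The 15 largest of these at 1 CPM or more are given here. They began with the transporter gene Abcc3 (2.84 ± 0.31), the F4/80 gene Adgre1 (2.68 ± 0.25), the phosphoinositide kinase gene Pik3cg (2.58 ± 0.36), the phospholipase family gene Pld4 (2.44 ± 0.17) and Bin2 (2.42 ± 0.24). Adgre1, a textbook macrophage marker, stood at 5.16, 4.51, 5.31 and 5.27 CPM in G793A and at 0.826, 0.408, 1.32 and 0.573 CPM in WT. Mpeg1, the pore-forming perforin-2 gene, was the most abundant of the 15, at 27.2, 27.9, 33.8 and 30.7 CPM against 8.40, 5.75, 10.2 and 8.97 CPM (1.84 ± 0.16). Ncf1, an NADPH oxidase subunit gene (2.06 ± 0.26), Arhgap45 (1.95 ± 0.22), the actin regulator gene Nckap1l (1.86 ± 0.16), the tetraspanin gene Cd37 (1.72 ± 0.22), the metal transporter gene Slc11a1 (1.71 ± 0.22), Tagap (1.71 ± 0.35), Tifab (1.70 ± 0.21), the phosphatase gene Ptpn6 (1.63 ± 0.19) and Cyth4 (1.57 ± 0.21) completed them. Tagap lost its call in 4 of 18 alternatives, among them limma-voom (adjusted p = 0.174) and the analysis without WT replicate 3. Cyth4 lost its call in the fit on the compared groups alone (adjusted p = 0.137). Slc11a1 lost its call with limma on the variance-stabilised values (adjusted p = 0.211). Of all 177 called genes, 45 had a mean under 1 CPM.

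The lists for glia other than microglia, vessels and neurons held no gene past the threshold. None of 16 oligodendrocyte precursor genes, 13 genes of committed precursors, 22 myelin genes, 16 astrocyte genes, 23 endothelial genes or 16 neuronal genes passed in either direction. Pdgfra, the receptor kinase of oligodendrocyte precursors, stood at 65.0, 58.4, 70.5 and 69.8 CPM in G793A and at 67.4, 68.4, 68.3 and 66.6 CPM in WT (-0.04 ± 0.08). The myelin protein gene Mbp (0.08 ± 0.12) did not pass. None of the 10 genes of KIT, FLT3, the PDGF receptors and their ligands passed: Kit stood at -0.00 ± 0.10 and Flt3 at 0.15 ± 0.14. Their 4 receptor genes are relatives of Csf1r or expressed on other glia and vessels, and the widest SE among Kit, Flt3, Pdgfra and Pdgfrb was 0.14.

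Some transcripts were lower in every G793A library without passing. Groups did not overlap with G793A below WT in 220 genes (1.36% of those tested), against 404 genes (2.49%) with G793A above. With 4 libraries in each group, some genes separate fully by chance alone. The genes named here are therefore described and not called. Gfap, the filament gene of reactive astrocytes, stood at 184, 145, 175 and 172 CPM in G793A and at 268, 200, 201 and 228 CPM in WT (-0.41 ± 0.13, adjusted p = 0.27). Every G793A value lay under every WT value. On control chow the ranges were 167 to 237 CPM in WT and 165 to 234 CPM in G793A. Of 20 reactive astrocyte genes none passed, and Gfap was the 1 whose groups did not overlap. Tgfb2 stood at 15.4 to 19.5 CPM in G793A and 21.0 to 22.6 CPM in WT (-0.32 ± 0.13, adjusted p = 0.662). Of 25 cholesterol genes none passed, and 5 lay lower without overlap, among them the genes of the sterol synthesis enzymes Sqle, Fdft1, Mvk and Hsd17b7, which were lower by at most 0.14 on the log2 scale. All 12 choroid plexus genes had negative values (median -0.84) and none passed. Ttr, the transthyretin gene of that tissue, stood at 206, 338, 377 and 205 CPM in G793A and at 413, 652, 326 and 998 CPM in WT, with overlap, and ranged from 214 to 1076 CPM over the G793A control libraries.

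Within the groups, the called genes did not scatter alike. The SD of log2 CPM over the 4 libraries was larger in WT than in G793A for 148 of the 177 called genes (83.6%), against 47.7% of all genes tested, and its median was 0.43 in WT and 0.18 in G793A. Called genes had lower counts in WT, and the part of counting error in this was not tested. WT replicate 2 was the lowest WT library for 104 of the 177 genes (58.8%), against 23.6% of all genes. In G793A, replicate 2 was the lowest for 87 (49.2%), against 27.5% of all genes. That G793A library was the one with 299 CPM of cerebellar transcripts, while WT replicate 2 held 1.16 CPM. The part of tissue composition in its low values was not tested. Without WT replicate 2, 155 genes passed.

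The same genotype difference on the other inhibitor was measured in 8 other libraries. There 151 genes were higher in G793A and 1, the neuropeptide receptor gene Npbwr1 (-0.70 ± 0.14, named after its value was seen), was lower. Of the 177 genes higher on PLX5622, 130 (73.4%) were called higher on PLX3397 too, which is 86.1% of the 151, and all 177 had a positive value there. Over the 177, the median difference was 1.64 on PLX5622 and 1.21 on PLX3397. These genes were chosen by the first of these values, so the order of the medians is a description. The doses in chow differed, 1200 and 290 mg/kg.

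Tested directly, the difference between the genotype contrasts on PLX5622 and on PLX3397 passed for 0 of 16209 genes (0%) in edgeR, with 599 at an unadjusted p under 0.05, for 0 in limma-voom and for 2 in DESeq2, P2ry13 (adjusted p = 0.00734) and Lag3 (adjusted p = 0.0373). For Csf1r it was 0.87 (95% interval 0.30 to 1.43), with 2.54 on PLX5622 and 1.68 on PLX3397. For P2ry12 it was 1.05 (0.50 to 1.60) and for P2ry13 1.35 (0.66 to 2.04). These intervals are for single genes and are not adjusted for the number tested. P2ry12, P2ry13, Mrc1 and Stab1 were named by their values on PLX5622, which enter this difference, so their intervals may lean upward. For Mrc1 it was 0.62 (-0.31 to 1.55) and for Stab1 0.27 (-0.08 to 0.62), so the intervals of both macrophage genes held 0. The WT libraries carried the lower levels: P2ry12 stood at 1.53 to 4.74 CPM in WT on PLX5622 and 4.78 to 6.66 CPM in WT on PLX3397, while G793A ranged from 25.7 to 32.7 CPM and from 20.4 to 28.2 CPM.

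The 5 genes with the smallest p in that test were Cd28, Lag3, Plcxd1, Lamtor3-ps and Trib2, each with an edgeR adjusted p of 1.00. Lag3 was higher in G793A on both drugs, by 2.13 ± 0.21 on PLX5622 and by 0.93 ± 0.19 on PLX3397, a difference of 1.20 (0.61 to 1.78). It was picked by this same test, so its interval may lean away from 0. Cd28, a co-stimulatory receptor gene, stood at 0.517 to 1.15 CPM in G793A and 0.220 to 0.315 CPM in WT on PLX5622 and did not pass (1.44 ± 0.37, adjusted p = 0.0614). Its value on PLX3397 was -0.86 ± 0.38. Trib2 (0.16 ± 0.06) and Plcxd1 (-0.36 ± 0.11) did not pass on PLX5622. Lamtor3-ps, a pseudogene whose reads may be shared with its parent gene, was at 0.256 to 0.538 CPM in G793A, and in WT at 0.0642 CPM in replicate 1 and 0 in the other 3, so no fold is given.

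**Figure D5:**
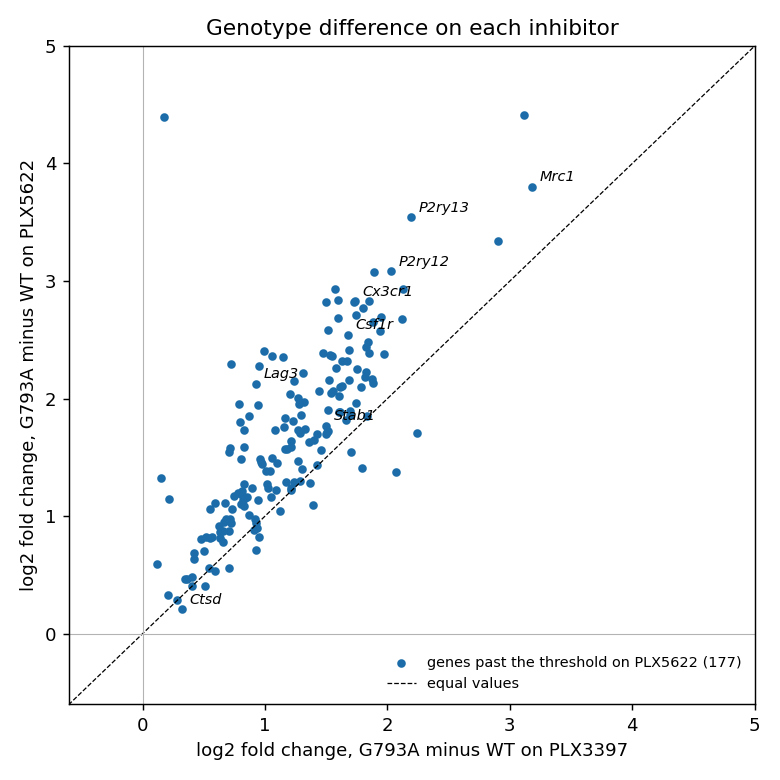
Log2 fold change of G793A minus WT on PLX5622 (vertical) against that on PLX3397 (horizontal) for the 177 genes past the threshold on PLX5622. All lie right of 0, and 162 lie above the dashed line of equal values, as would 51.2% of all genes tested (not shown). The genes were chosen by the vertical value.

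On control chow 0 genes were called between the genotypes. There the genotype difference over the 177 genes had a median of -0.09, and 49 of the values were positive. The microglial marker sum on control chow ran from 193 to 238 CPM in G793A and from 239 to 250 CPM in WT. For border-associated macrophages it ran from 8.96 to 10.4 CPM in G793A and from 11.0 to 11.8 CPM in WT. Both sums were thus lower in G793A without overlap, and no test was run on them. The difference between the genotype contrast on PLX5622 and that on control chow passed for 131 genes, 130 larger (0.802% of the genes) and 1 smaller (0.00617%) on PLX5622, and 129 of these were among the 177. The 177 were chosen by the contrast on PLX5622, which enters this difference, so the overlap is in part built in. The smallest p-values were those of Stab1, Pld4, Siglech, P2ry12 and P2ry13. These genes were picked by this same test, so their values may lean away from 0. For Stab1 the difference of differences was 2.07 ± 0.17, with 1.77 on PLX5622 and -0.30 on control chow. Levels on control chow were 13.2 to 17.1 CPM in WT and 11.6 to 13.6 CPM in G793A. The gene with the smaller contrast on PLX5622 was Plcxd1 (-0.75 ± 0.16, adjusted p = 0.0155): it stood at 7.71 to 8.52 CPM in G793A and 9.29 to 11.3 CPM in WT on PLX5622, and at 8.98 to 12.7 CPM in G793A and 7.70 to 10.01 CPM in WT on control chow. Ctsd, the smallest difference on PLX5622, did not differ past the threshold between the contrasts (0.19 ± 0.08, adjusted p = 0.568).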

How the data were processed

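Polyadenylated RNA of brain was sequenced as stranded libraries, per the labels' protocols. Build GRCm39, DESeq2 1.26.0, kallisto 0.46.1 and FastQC 0.11.9 appear in the submitters' processing notes. Annotation and gene-level summing: not given in the sources used here. Expected counts, estimated by the authors per gene symbol and not scaled, fill the deposited table (22310 genes, 45.3% of values not whole), and were rounded. A blank-named entry, at most 0.0151% of a library, was left out. The authors' variance-stabilised values on a log2 scale served only as an alternative.

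Libraries were grouped by title. TMM scaling, filterByExpr (minimum count 10, total 15) and a robust quasi-likelihood fit with a term per group were run in R 4.3.3 with edgeR 4.0.16, two-sided. Each adjusted p is from this edgeR fit unless another tool is named. SE is the log2 fold change divided by the root of F. The alternatives were DESeq2 1.42.0, limma-voom (limma 3.58.1), limma on the log2 values, RLE scaling, no low-count filter, a 1 CPM filter, an ordinary in place of a robust fit, the compared groups alone, a replicate block and leaving out each library. Leaving out the 2 libraries with cerebellar transcripts was chosen after seeing the data.

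In simulated counts of this comparison (16092 genes tested), 86% of 100 genes changed by 1 log2 and 99% of 100 changed by 2 were recovered, and 7 unchanged genes were called. The changed genes were drawn at random over all levels, in both directions, with the same spread in both genotypes. These rates therefore do not describe the called genes, which were all higher and scattered more in WT. The libraries of each group differed by more than counting noise (chi-square per degree of freedom 5.86 to 30.5), so none was a copy.

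The comparison, gene lists and tests were chosen with earlier results of these data known. Named are Csf1r and its ligands, up to 5 called members of each list at 1 CPM or more, the 15 largest called changes in each direction outside lists at that level without overlap (none was lower), and the 5 smallest p-values of each difference of contrasts. Other list members are named where a list is described. Lists are described by counts and medians, with no set test. Values of some list members are not reported here.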

Additional observations from a re-analysis of the deposited data

Results flagged for a closer look

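In groups of 4 libraries, a library was singled out when its gap to the nearest other was too large a share of the group's range by Dixon's 95% critical value. Of 160 such groups among the named genes 13 were, where chance gives about 8. In G793A the single libraries were replicate 2 for Csf1r (58.8 CPM, the others 74.2 to 77.3) and Tyrobp (8.44 CPM, the others 9.63 to 9.69), and replicate 3 for P2ry12 (32.7 CPM) and Tgfbr1 (39.3 CPM). Replicate 1 stood apart for Cd33 (5.59 CPM, low) and Il10ra (5.48 CPM, high), and replicate 4 for Cd37 (2.78 CPM, high). In WT, replicate 2 was low for Tyrobp (0.953 CPM, the others 2.03 to 2.12) and Pld4 (0.442 CPM, the others 1.07 to 1.16). Replicate 1 was high for Tgfbr1 (19 CPM), Csf3r (2.69 CPM) and Lamtor3-ps (0.0642 CPM, the others 0), and replicate 3 was high for Tgfb1 (3.01 CPM).

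The genotype difference on PLX5622 differed from that on control chow, by the test of the difference itself, for 131 genes. The 5 with the smallest p were P2ry13 (3.65 on the log2 scale), P2ry12 (3.32), Siglech (2.89), Pld4 (2.75) and Stab1 (2.07), each larger on PLX5622. They were picked by this same test, which includes the contrast on PLX5622, so their values may lean upward.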

How the results depend on the processing

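The count of 177 called genes lay between 135 (limma on the authors' variance-stabilised values, 132 higher and 3 lower: Cbarp, Chaf1a and Creb5) and 193 (DESeq2) over the alternatives, and between 155 (without WT replicate 2) and 175 when each library was left out. The fit on the 8 libraries alone called 152 higher and 2 lower, Hus1 (-0.49, adjusted p = 0.00736) and Mas1 (-0.51, adjusted p = 0.00561), which did not pass in the edgeR fit of all libraries (Hus1 -0.50, Mas1 -0.52). A filter at a mean of 1 CPM left 143. Leaving out 1 library also called genes lower, for WT replicates 1 and 3 and G793A replicates 1, 2 and 3. These were Dmrt3, Gm21992, Gpr12, Prickle4, Wfdc2, Zfp185, Lrrtm1, Gm45799 and Lama4, named after their values were seen. Dmrt3 was lower without WT replicate 1, WT replicate 3 or G793A replicate 3. With all libraries its difference was -1.91 ± 0.48 (adjusted p = 0.0572), at means of 0.083 CPM in G793A and 0.319 CPM in WT. For the difference from the contrast on PLX3397, DESeq2 called 2 genes (P2ry13 and Lag3), against 0 in the other alternatives run, leaving out libraries included (0 to 0). Neither difference of contrasts was run on the variance-stabilised values. The count of 131 for the difference from control chow ranged from 115 to 144 when each library was left out and reached 162 with DESeq2. Of 75 named genes past the threshold, 61 passed in all their alternatives and 14 lost the call in at least 1 (6 of them only on the variance-stabilised values), and none reversed. Among those 6 were Entpd1 (adjusted p = 0.886 with limma on these values), Inpp5d (0.857), Pycard (0.575), Ptgs1 (0.273) and Slc11a1 (0.211). Cd28, which had not passed, did so in 3 alternatives. Of 828 list medians recomputed, 48 moved by more than the spread between libraries. On the variance-stabilised scale the homeostatic median was 0.94 and the pan-myeloid one 0.44.

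Replicate numbers do not pair the libraries: same-numbered libraries of the groups had residual correlations from -0.038 to 0.057. With the replicate number as a block, 171 genes were called, 169 of them among the 177, 0 for the difference from PLX3397 and 128 for that from control chow.

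Depth limits genes near the filter: 45 called genes had a mean under 1 CPM, where 1 library at 0 moves a fold.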
